A study of Mus musculus with 4 samples.

Results

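The expression of 45 genes of autophagy and of mTORC1, the kinase complex that restrains it, was examined in CD45+ cells from the epididymal white adipose tissue (eWAT) of mice fed a normal diet (ND) or a high-fat diet (HFD). The genes were taken by name from a list and all 45 were found among the 35869 genes in the deposited tables. The list holds 14 genes of initiation, 12 of conjugation, 5 cargo receptors, 4 genes of fusion and 10 genes of mTORC1 control. CD45 is a surface protein of leukocytes, and the cells were captured with CD45 microbeads after the adipocytes of the fat had been removed.

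Autophagy is the pathway by which a cell encloses part of its own cytoplasm in a double membrane, the autophagosome, and delivers it to the lysosome. The ULK1 kinase complex starts it, a class III PI3-kinase complex around BECN1 marks the growing membrane, conjugation enzymes attach ATG8 family proteins such as LC3 and GABARAP to that membrane, cargo receptors bring in what is to be degraded, and tethers and SNARE proteins fuse the finished vesicle with the lysosome. mTORC1, a kinase complex that is recruited to the lysosome by Rag GTPases and switched on by RHEB, phosphorylates the ULK1 complex and holds autophagy back when nutrients are plentiful. Macrophages use the pathway to turn over lipid droplets, mitochondria and engulfed material.

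There were 2 samples per diet, all from male wild-type (WT) C57BL/6 mice that were put on their diet at 8 weeks of age for 12 weeks. How many mice went into each sample is not given in the sources used here, so the p-values below measure the spread between these samples only. The RNA-seq values are TPM, in which the authors divided each read count by the length of the gene and scaled every sample to the same total. TPM values are therefore shares of the RNA in a sample, and levels of different genes can be set side by side. limma was run on log2(TPM + 1) over the 16849 genes with at least 1 TPM in at least 2 samples, a filter that all 45 members passed. The samples hold approximately 37600000 and 44400000 counted reads for ND and 46900000 and 41000000 for HFD. A gene is called here when its Benjamini-Hochberg adjusted p-value over all genes tested is under 0.05, and it is a differentially expressed gene (DEG) when it also changed by at least 1.5-fold.

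Markers of several cell types, some of them not immune, were detected in the CD45+ samples and differed in level between the diets. Ptprc, the gene of CD45, had 54.5 and 59.4 TPM on ND and 55.3 and 53.7 TPM on HFD and was not called, and of the other leukocyte genes on its list Laptm5 was not called (log2 fold change -0.087) and Coro1a was a DEG lower in HFD (-0.71, adjusted p = 0.0161 in limma). All 7 markers of lipid-associated macrophages were DEGs higher in HFD, with a summed level of 1032 to 1081 TPM on ND and 8236 to 8639 TPM on HFD, and all 6 markers of resident macrophages were DEGs lower in HFD. The summed level of 3 T cell markers fell from between 105.9 and 113.1 TPM to between 11.3 and 23.3 TPM, and the 3 genes and all 4 B cell markers were DEGs lower in HFD. Of the 6 general macrophage markers, Adgre1 (log2 fold change 0.78) and Cd68 (0.86) were DEGs higher in HFD, Csf1r (-0.56) was called lower and 3 were not called. Their sum, most of which is Lyz2, was 9150 to 9364 TPM on ND and 8794 to 9435 TPM on HFD. For fibroblasts, 4 of 6 markers were DEGs and the summed level was 522 to 561 TPM on ND, 2837 TPM for HFD replicate 1 and 5686 TPM for HFD replicate 2. For spermatids, 0 of 8 markers were called in limma and the summed level was 1911 to 1938 TPM on ND, 7245 TPM for HFD replicate 1 and 2190 TPM for HFD replicate 2. All 4 markers of epididymal epithelium were DEGs lower in HFD, with a summed level of 91.8 and 107 TPM on ND and 9.5 and 14.5 TPM on HFD. All 3 natural killer cell markers, all 3 neutrophil markers that passed the filter and 2 of 3 monocyte markers were also DEGs lower in HFD. None of these lists had a marker at 0 in all samples. In bulk RNA, fewer cells of a type and less RNA per cell cannot be told apart, and the part of these cell types in the results below was not tested.

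Of the 45 members, 10 were called higher and 2 were called lower in HFD, and 33 were not called. Those called in either direction were 26.7% of the members, against 27.3% of all genes tested. By direction the members called higher were 22.2%, against 13.2% of all genes, and those called lower were 4.44%, against 14.1%. The background depends on expression level. With a filter at a mean of 5 TPM, 2141 of 10723 genes were called higher and 1792 lower, 36.7% in either direction. Of the 41 members that pass that filter, 10 were called higher and 2 lower. Only 3 members, Fnip2, Rragd and Wipi1, were DEGs, which is 6.67% of the list against 18.4% of all genes. All 3 were higher in HFD, as were 8.08% of all genes, and none was a DEG lower in HFD in limma, as were 10.3% of all genes. The share of members called was thus close to that of the whole transcriptome, and the share that passed 1.5-fold was below it. The median log2 fold change of the members was 0.14, against 0.056 over all genes tested, and 36 of the 45 lay above 0 (80.0%, against 54.9% of all genes), some of them uncalled genes near 0 that changed sign under other scalings (Becn1, Atg3, Map1lc3b and Sqstm1 under each of the 3 tried). In 24 members both HFD samples were above both ND samples (53.3%, against 34.1% of all genes), and in 6 both were below (13.3%, against 32.8%). The groups thus did not overlap in 30 members, or 66.7%, against 66.9% of all genes. An exact permutation test of a single gene with 2 samples against 2 cannot give a p-value under 0.333, so the calls rest on the spread that limma pools over all genes.

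The calls depended on the samples used. Without HFD replicate 1, 5 members were called higher and 1 lower, and without HFD replicate 2 these numbers were 12 and 2. Without ND replicate 1 or without ND replicate 2, 0 members and 0 of the 16849 genes were called in limma, although 6 and 8 members were higher and 2 were lower at an unadjusted p-value under 0.05. In these fits the lone sample of a diet is assumed to vary like the samples of the other diet. The direction of the 12 called members was the same in each of the 4 fits. The whole data set moved with the HFD sample left out. Leaving out HFD replicate 1 lowered the number of genes called higher over all genes tested, and leaving out HFD replicate 2 raised it. The median log2 fold change over all genes, 0.056 in the main fit, became -0.074 and 0.11 in the same order. The swing in the member counts is thus not particular to the members.

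**Figure D1:**
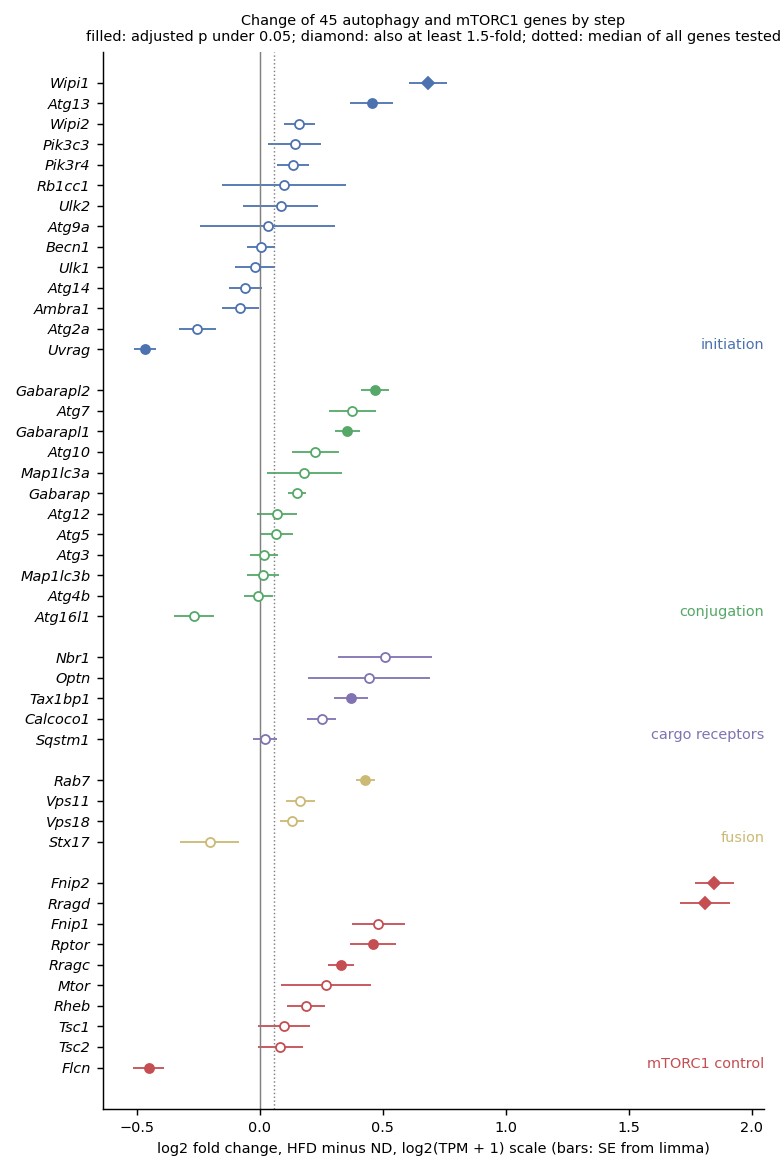
Log2 fold change between HFD and ND on the log2(TPM + 1) scale for the 45 genes, grouped by step, with bars for the standard error from limma. Filled symbols have an adjusted p-value under 0.05 and diamonds also changed by at least 1.5-fold, and the dotted line is the median of all genes tested, 0.056. Fnip2 and Rragd lie apart from the rest, at 1.85 and 1.81, and Uvrag and Flcn are the filled symbols below 0.

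The genes of mTORC1 control held the largest changes on the list. Among the 10 genes, 4 were called higher (Fnip2, Rragd, Rptor and Rragc), 1 was called lower (Flcn) and 5 were not called, where 13.2% of all genes tested were called higher and 14.1% lower. The median log2 fold change of the step was 0.30, against 0.056 over all genes. The summed level of the 10 genes was 379 and 408 TPM on ND and 496 and 482 TPM on HFD. Most of this sum is Rragc and Rheb, and the changed genes Fnip2 and Rragd are minor transcripts beside them.

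Rragd encodes RagD, a GTPase that pairs with RagA or RagB on the lysosome and takes part in the recruitment of mTORC1. It lies on the plus strand of chromosome 4 of mm10, at chr4:32983037-33022180 in GENCODE vM21, in 8 exon blocks. Rragd had 1.2 and 1.4 TPM on ND and 6.9 and 7.2 TPM on HFD. These values rest on approximately 88.4 and 119 reads on ND against 578 and 524 on HFD. The HFD samples were close to each other and the groups did not overlap. The mean rose from 1.30 ± 0.141 TPM to 7.05 ± 0.212 TPM (SD, n = 2 each), a ratio of 5.42. On the log2(TPM + 1) scale, which understates the change of a gene with a low TPM, the log2 fold change was 1.81 (standard error, SE, 0.10, adjusted p = 0.00628 in limma). It was 0.94 with a pseudocount of 5 and 2.36 with one of 0.1.

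Its paralog Rragc encodes RagC, which fills the same place in the Rag dimer. Rragc was much more abundant, with 170.1 and 177.4 TPM on ND and 225.3 and 212.4 TPM on HFD. Both HFD samples were above both ND samples, and Rragc was called higher with a log2 fold change of 0.33 (SE 0.05, adjusted p = 0.0298 in limma). That call was lost in 4 of 8 alternatives without a replicate block, where the adjusted p-value lay between 0.0224 and 0.0725, and without HFD replicate 1 (adjusted p = 0.0728). Rragd made up 0.701% and 0.783% of the summed TPM of the pair in ND and 2.97% and 3.28% in HFD. Rragd thus rose by a larger factor than Rragc, and Rragc remained nearly all of the pair in each sample.

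The regions before the start sites of both genes are shown because the MiT/TFE transcription factors, which regulate lysosomal and autophagy genes, bind an element with the palindromic core TCACGTGA that contains the E-box CACGTG. The sequences are from RefSeq on GRCm38, the assembly called mm10, on the strand of the gene, 5′ to 3′, and end 1 base before the RefSeq start. Capitals mark matches to CACGTG. The stretch of Rragc is chr4:123917183-123917432 and that of Rragd is chr4:32982748-32982997, both on the plus strand.
Rragc: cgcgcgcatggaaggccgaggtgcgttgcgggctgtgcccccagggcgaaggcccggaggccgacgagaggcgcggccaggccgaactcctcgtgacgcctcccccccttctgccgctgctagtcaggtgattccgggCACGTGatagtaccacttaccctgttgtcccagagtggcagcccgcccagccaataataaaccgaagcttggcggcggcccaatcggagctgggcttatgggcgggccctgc
Rragd: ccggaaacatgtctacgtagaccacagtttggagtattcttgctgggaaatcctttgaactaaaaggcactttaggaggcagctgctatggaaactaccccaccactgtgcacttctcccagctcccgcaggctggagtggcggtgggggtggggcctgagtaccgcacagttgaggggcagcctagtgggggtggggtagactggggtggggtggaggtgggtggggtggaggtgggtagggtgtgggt
Rragc holds 1 CACGTG, at -112 from the start, and Rragd holds 0.

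FNIP1 and FNIP2 are the partners of folliculin (FLCN), with which they form a complex that acts on the nucleotide state of RagC and RagD. Fnip2 lies on the minus strand of chromosome 3, at chr3:79455974-79567796 in 19 exon blocks. Fnip2 had 4.9 and 5.1 TPM on ND and 19.9 and 21.3 TPM on HFD, with no overlap between the groups. The HFD mean was 20.6 ± 0.990 TPM (SD, n = 2), 4.12 times the ND mean, and the log2 fold change was 1.85 (SE 0.08, adjusted p = 0.00500 in limma). Among the 1361 DEGs higher in HFD, Fnip2 ranked 222 and Rragd 240 by log2 fold change. Fnip2 and Rragd were also the members that kept an adjusted p-value under 0.05 with a replicate block, at 0.0455 and 0.0488.

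Fnip1 had 14.7 and 16.6 TPM on ND and 23.6 and 20.9 TPM on HFD. Both HFD samples were above both ND samples, yet Fnip1 was not called (log2 fold change 0.48, SE 0.11, adjusted p = 0.0543 in limma). It was called with a filter at a mean of 5 TPM, with median-ratio scaling and with quantile normalization, at adjusted p-values from 0.0309 to 0.0433. Fnip2 made up 25.0% and 23.5% of the summed TPM of the pair in ND and 45.7% and 50.5% in HFD. The summed level of the pair went from 19.6 and 21.7 TPM on ND to 43.5 and 42.2 TPM on HFD.

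Flcn, the folliculin gene itself, was one of the 2 members called lower. It lies at chr11:59791408-59810016 on the minus strand. Flcn had 18.7 and 19.4 TPM on ND and 13.7 and 13.6 TPM on HFD, so the groups did not overlap. The log2 fold change of Flcn was -0.45 (SE 0.06, adjusted p = 0.0228 in limma). It stayed called in 8 of 8 alternatives without a block, but not without HFD replicate 1 (adjusted p = 0.0516). The transcripts of the 3 proteins of this complex therefore did not move together, with Flcn lower, Fnip2 higher and Fnip1 on the same side as Fnip2 without passing the test.

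Rptor encodes RAPTOR, the subunit of mTORC1 that holds its substrates. Rptor had 5.2 and 5.3 TPM on ND and 8.0 and 7.2 TPM on HFD, and was called higher with a log2 fold change of 0.46 (SE 0.09, adjusted p = 0.0462 in limma). The call was lost without a filter (adjusted p = 0.0663), with quantile normalization (0.0850) and without HFD replicate 1 (0.0529). Mtor, the gene of the kinase, had 16.4 and 17.6 TPM on ND, 24.3 TPM for HFD replicate 1 and 17.6 TPM for HFD replicate 2. HFD replicate 2 was at the level of ND replicate 2, and Mtor was not called (log2 fold change 0.27, adjusted p = 0.358).

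The brake on mTORC1, the TSC complex, and its target RHEB were not called. Tsc1 had 2.4 and 2.6 TPM on ND and 2.9 and 2.6 TPM on HFD (log2 fold change 0.10, limma adjusted p = 0.545). Tsc2 had 3.1 and 3.3 TPM on ND and 3.4 and 3.5 TPM on HFD (log2 fold change 0.08, adjusted p = 0.557). Tsc1 was between 42.6% and 46.0% of the pair in all 4 samples. Rheb had 142.6 and 159.7 TPM on ND and 167.7 and 176.1 TPM on HFD, with both HFD samples above both ND samples (log2 fold change 0.19, adjusted p = 0.171).

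**Figure D2:**
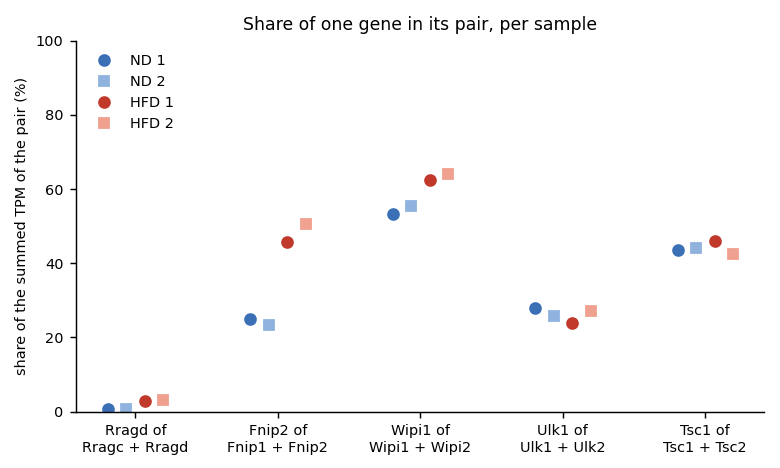
Share of one gene in the summed TPM of its pair, in percent, for each of the 4 samples. Fnip2 went from 25.0% and 23.5% of its pair in ND to 45.7% and 50.5% in HFD, Rragd stayed at or below 3.28% in each sample, and the shares of Ulk1 and Tsc1 overlapped between the diets.

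Of the 14 initiation genes, 2 were called higher (Wipi1 and Atg13), 1 was called lower (Uvrag) and 11 were not called, where 27.3% of all genes tested were called in either direction. The median log2 fold change of the step was 0.058, against 0.056 over all genes tested. The summed level of these genes was 321 and 339 TPM on ND and 353 and 328 TPM on HFD, which overlap.

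In the ULK1 complex, Atg13, the subunit that links the kinase to its scaffold, had 4.6 and 4.7 TPM on ND and 7.0 and 6.5 TPM on HFD. Its log2 fold change was 0.46 (SE 0.09, adjusted p = 0.0414 in limma). The call of Atg13 was lost without a filter (adjusted p = 0.0590), with quantile normalization (0.106) and without HFD replicate 1 (0.0520). The kinases themselves were not called. Ulk1 had 9.9 and 9.6 TPM on ND and 10.0 and 9.2 TPM on HFD (log2 fold change -0.021, adjusted p = 0.865), and Ulk2 had 25.4 and 27.7 TPM on ND and 32.0 and 24.8 TPM on HFD (0.084, adjusted p = 0.716). Ulk2 was the more abundant of the pair in all 4 samples, and Ulk1 made up 23.8% to 28.0% of the summed TPM. Rb1cc1, the gene of the scaffold FIP200, had 6.7 and 7.7 TPM on ND, 9.8 TPM for HFD replicate 1 and 6.1 TPM for HFD replicate 2, and was not called (0.097, adjusted p = 0.80).

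The class III PI3-kinase complex makes the lipid PI3P on the growing membrane. Becn1, its central subunit, was the most abundant gene of the step and was not called, with 81.4 and 87.1 TPM on ND and 85.4 and 83.5 TPM on HFD (log2 fold change 0.0041, SE 0.055, adjusted p = 0.964 in limma). Exons of Cntd1 on the opposite strand cover 43.9% of the exon bases of Becn1, and although the library kit keeps the strand, whether reads were counted by strand is not stated. The catalytic subunit Pik3c3, the regulatory kinase Pik3r4, Atg14 and Ambra1 were not called either, with log2 fold changes from -0.079 to 0.14.

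Uvrag was the other member called lower. UVRAG and ATG14 bind BECN1 in turn, ATG14 in the complex that starts autophagosomes and UVRAG in the one that serves their maturation and endosomes. Uvrag lies at chr7:98885021-99141141 on the minus strand and had 53.8 and 54.6 TPM on ND and 39.0 and 38.8 TPM on HFD. The samples of each diet were within 1 TPM of each other and the groups did not overlap. The log2 fold change of Uvrag was -0.47 (SE 0.05, adjusted p = 0.0129 in limma), and it stayed called in 8 of 8 alternatives without a block. Exons of an antisense gene, Gm45187, cover 17.6% of its exon bases. Atg14 had 16.0 and 16.7 TPM on ND and 16.0 and 15.3 TPM on HFD (log2 fold change -0.059, adjusted p = 0.567).

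Wipi1 was the DEG of the step. WIPI proteins bind PI3P and bring the conjugation machinery to the membrane. Wipi1 lies at chr11:109573331-109611967 on the minus strand in 14 exon blocks. It had 24.6 and 27.5 TPM on ND and 42.2 and 42.5 TPM on HFD, with no overlap. The mean rose from 26.1 ± 2.1 TPM to 42.4 ± 0.212 TPM (SD, n = 2 each), a ratio of 1.63 and a log2 fold change of 0.68 (SE 0.08, adjusted p = 0.0163 in limma). Wipi1 was no longer called when HFD replicate 1 was left out (adjusted p = 0.0713) or when HFD replicate 2 was (0.0622). Wipi2 had 21.6 and 22.0 TPM on ND and 25.3 and 23.7 TPM on HFD and was not called (log2 fold change 0.16, adjusted p = 0.162). Wipi1 made up 53.2% and 55.6% of the pair in ND and 62.5% and 64.2% in HFD.

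Atg2a, which encodes a lipid transfer protein, had log2 fold change -0.25 (adjusted p = 0.0932 in limma), with both HFD samples below both ND samples. Atg9a, which encodes the membrane protein of the seed vesicles, had 8.8 and 8.6 TPM on ND, 11.6 TPM for HFD replicate 1 and 6.8 TPM for HFD replicate 2. The HFD samples lay on either side of the ND samples (log2 fold change 0.032, adjusted p = 0.942). Atg9a was called with HFD replicate 2 left out (0.38, adjusted p = 0.0478), and its log2 fold change was -0.31 with HFD replicate 1 left out. Exons of Gm29253 on the same strand cover 31.8% of its exon bases.

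**Figure D3:**
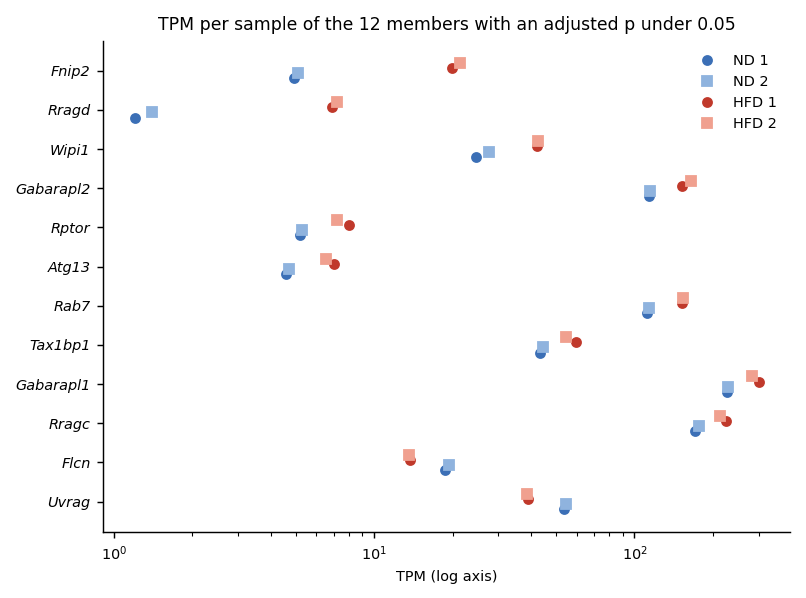
TPM on a log axis for the 12 members with an adjusted p-value under 0.05, with blue for ND and red for HFD, circles for replicate 1 and squares for replicate 2. The gap between the diets is wide for Fnip2 and Rragd, from 5.1 to 19.9 TPM and from 1.4 to 6.9 TPM at their nearest points, and small for the abundant genes such as Rragc.

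In the conjugation step, 2 of 12 genes were called higher (Gabarapl2 and Gabarapl1) and 10 were not called, a share close to the 13.2% of all genes called higher. The median log2 fold change was 0.11, against 0.056 over all genes, and it was 0.024 with quantile normalization, 0.051 rescaled without the 50 highest genes and 0.062 without HFD replicate 1. Both called genes belong to the ATG8 family, and none of the 7 conjugation enzymes was called in limma, although Atg7 and Atg16l1 had an unadjusted p-value under 0.05. The enzymes summed to 163 and 174 TPM on ND and 177 and 170 TPM on HFD, while the ATG8 genes summed to 1511 and 1496 TPM on ND and 1701 and 1727 TPM on HFD.

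ATG7 is the E1-like enzyme that activates both ATG12 and the ATG8 proteins, and ATG3 and ATG10 are the E2-like enzymes. Atg7 had 8.6 and 9.6 TPM on ND and 12.6 and 11.6 TPM on HFD (log2 fold change 0.38, SE 0.10, adjusted p = 0.0716 in limma). Atg10 was the lowest of the 45 genes by mean TPM over the 4 samples, although Rragd was lower on ND. Atg10 had 1.9 and 2.0 TPM on ND and 2.4 and 2.5 TPM on HFD, on approximately 46.5 to 66.7 reads per sample, and was not called (0.23, adjusted p = 0.179). Atg16l1, which places the ATG12-ATG5 conjugate on the membrane, had 12.7 and 13.6 TPM on ND and 11.1 and 10.4 TPM on HFD (-0.27, adjusted p = 0.0966). Both HFD samples were above ND in Atg7 and Atg10 and below it in Atg16l1, without passing the test.

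The other enzymes lay near 0. The log2 fold changes were 0.017 for Atg3, 0.066 for Atg5, 0.070 for Atg12 and -0.0065 for Atg4b, the protease that trims and releases ATG8 proteins, with adjusted p-values of 0.528 or more in limma. The standard errors of these 4 genes were between 0.057 and 0.081.

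Among the ATG8 genes, Gabarap was the most abundant of all 45 members. It had 828.2 and 807.1 TPM on ND and 897.2 and 919.5 TPM on HFD (log2 fold change 0.15, SE 0.04, adjusted p = 0.0613 in limma), and it was called with quantile normalization (0.23, adjusted p = 0.0165). Gabarapl1 had 226.4 and 228.9 TPM on ND and 301.4 and 281.9 TPM on HFD, a log2 fold change of 0.36 (SE 0.05, adjusted p = 0.0239). The call of Gabarapl1 was lost in 3 of 8 alternatives without a block, with an adjusted p-value of 0.134 under quantile normalization. Exons of 1700101I11Rik on the opposite strand, with 33.8 to 44.9 TPM, cover 28.3% of its exon bases. Gabarapl2 had 114.2 and 114.9 TPM on ND and 152.4 and 165.2 TPM on HFD, a log2 fold change of 0.47 (SE 0.06, adjusted p = 0.0190), and the call was lost with median-ratio scaling (adjusted p = 0.0831).

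The LC3 genes were not called. Map1lc3b, the gene of the LC3 protein most used to follow autophagosomes, had 283.8 and 287.3 TPM on ND and 274.3 and 302.5 TPM on HFD, and the HFD samples lay on either side of ND (log2 fold change 0.013, SE 0.064, adjusted p = 0.897 in limma). Map1lc3a had 58.5 and 58.2 TPM on ND, 75.7 TPM for HFD replicate 1 and 57.9 TPM for HFD replicate 2 (0.18, adjusted p = 0.453), and without HFD replicate 2 it was called (0.37, adjusted p = 0.0343). Within the family Map1lc3b made up 18.8% and 19.2% of the TPM in ND and 16.1% and 17.5% in HFD, Gabarapl2 made up 7.56% and 7.68% in ND and 8.96% and 9.57% in HFD, and Gabarap stayed between 52.7% and 54.8%. RNA levels say nothing of how much LC3 or GABARAP protein was attached to membranes.

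**Figure D4:**
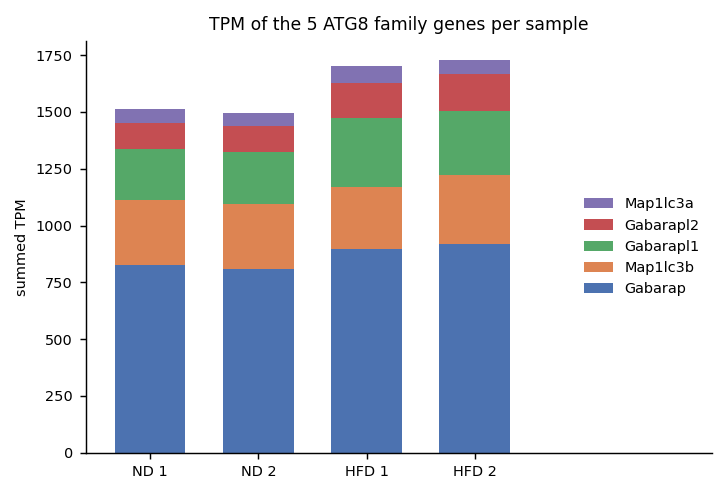
Summed TPM of the 5 ATG8 family genes in each sample, stacked by gene. The sums are 1511 and 1496 TPM on ND and 1701 and 1727 TPM on HFD, and Gabarap is between 52.7% and 54.8% of each bar.

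All 5 cargo receptors had a log2 fold change above 0, although that of Sqstm1 fell below 0 under median-ratio scaling, quantile normalization and rescaling without the 50 highest genes. Over all genes tested, 54.9% lay above 0. The median of the receptors was 0.37, and 1 of them, Tax1bp1, was called higher, as were 13.2% of all genes. TAX1BP1, NBR1, OPTN and SQSTM1 bind ubiquitin on cargo and ATG8 proteins on the membrane. Tax1bp1 had 43.2 and 44.7 TPM on ND and 59.7 and 54.6 TPM on HFD, with no overlap (log2 fold change 0.37, SE 0.07, adjusted p = 0.0383 in limma). That call was lost in 3 of 8 alternatives without a block, where the adjusted p-value lay between 0.0299 and 0.0643, and without HFD replicate 1 (0.0661).

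Sqstm1, the gene of p62, was the second most abundant member and was not called, with 587.9 and 583.9 TPM on ND and 575.0 and 614.5 TPM on HFD (log2 fold change 0.021, SE 0.048, adjusted p = 0.774 in limma). Exons of Mrnip on the opposite strand cover 17.3% of its exon bases. Nbr1 had the highest log2 fold change of the step, 0.51, but was not called (adjusted p = 0.145), with 7.6 and 8.7 TPM on ND, 14.1 TPM for HFD replicate 1 and 10.2 TPM for HFD replicate 2. Optn had 4.7 and 5.1 TPM on ND, 8.9 TPM for HFD replicate 1 and 5.5 TPM for HFD replicate 2 (0.44, adjusted p = 0.278), and was called without HFD replicate 2 (0.75, adjusted p = 0.0415). Calcoco1, a receptor for the endoplasmic reticulum and Golgi, had 67.2 and 72.6 TPM on ND and 84.3 and 82.4 TPM on HFD, with no overlap (0.25, adjusted p = 0.0620).

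Of the 4 fusion genes, 1 was called higher, where 13.2% of all genes were, and the median log2 fold change was 0.15. Rab7, the GTPase of late endosomes and lysosomes, had 112.2 and 114.0 TPM on ND and 152.1 and 153.1 TPM on HFD. The samples of each diet differed by less than 2 TPM and the groups did not overlap, and the log2 fold change was 0.43 (SE 0.04, adjusted p = 0.0112 in limma). With median-ratio scaling the adjusted p-value of Rab7 was 0.0544. Vps11 and Vps18, core subunits shared by the HOPS and CORVET tethers, had log2 fold changes of 0.16 and 0.13 (adjusted p = 0.139 and 0.143). Stx17, the SNARE of the autophagosome, had 6.7 and 7.4 TPM on ND and 6.5 and 5.5 TPM on HFD (-0.20, adjusted p = 0.297). The groups did not overlap in any of the 4 genes, 3 with HFD above and Stx17 with HFD below, as was the case for 66.9% of all genes tested.

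The HFD samples were less alike than the ND samples in several members. The median absolute difference between replicates on the log2(TPM + 1) scale was 0.050 in ND and 0.094 in HFD over the members, against 0.087 and 0.16 over all genes tested. In 5 members the HFD replicates differed by at least 0.4 on this scale, and in 0 members did the ND replicates. These were Atg9a (0.69), Optn (0.61), Rb1cc1 (0.61), Mtor (0.44) and Nbr1 (0.43), all higher in HFD replicate 1. Map1lc3a (0.38) and Ulk2 (0.36) came next, also with HFD replicate 1 above. The whole data set leaned the same way. The median of HFD replicate 1 minus HFD replicate 2 was 0.073 over all genes tested and 0.085 over the members. HFD replicate 1 is also the sample with 7245 TPM in the 8 spermatid markers, and the part of those cells in these values was not tested. The HFD replicates of the 12 members called in limma differed by at most 0.13 on this scale, in Rptor. A call in limma depends on a small spread between replicates, so this closeness is not separate evidence for the calls.

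**Figure D5:**
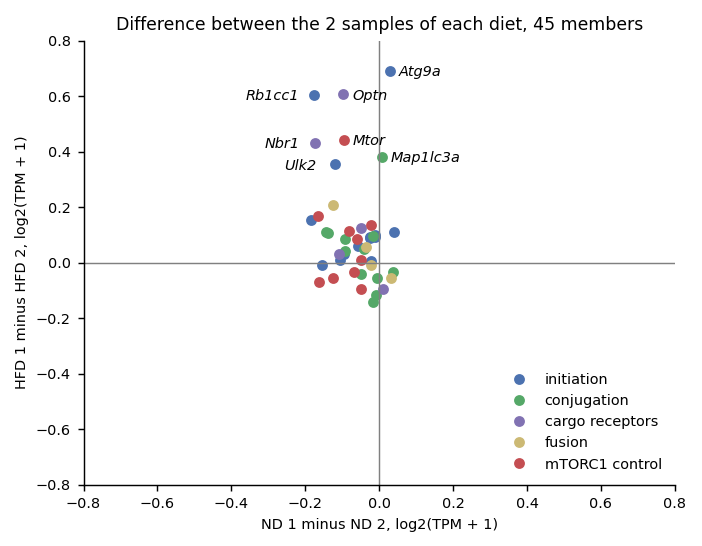
Difference between the 2 samples of each diet on the log2(TPM + 1) scale, ND on the horizontal and HFD on the vertical axis, for the 45 members coloured by step. Atg9a, Optn, Rb1cc1, Mtor and Nbr1 lie at 0.43 or above on the HFD axis, and the ND differences of all members stay between -0.18 and 0.040.

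The motif described for Rragc was counted over the promoters of all members. RefSeq windows from 250 bases before to 50 bases after a start were at hand for 38 of the 45 members (41 windows). CACGTG, which reads the same on both strands, was in 7 of these windows, those of Rragc, Rheb, Atg7, Atg5, Fnip1, Atg14 and Atg3. By gene this is 18.4% of the members, against 8.09% of the 27025 genes with a window. Over single windows the share was 7.15% of all 32851. The longer TCACGTGA was in 1 member, Atg3 (2.63%), against 1.12% of genes. Every TCACGTGA also counts as a CACGTG. Of the 7 genes, 1, Rragc, was called, where 27.3% of all genes tested were. The windows of the 3 DEGs held 0 matches, but that of Fnip2 lies downstream of the earliest start in RefSeq, at position 79568151 of chromosome 3, and that of Wipi1 downstream of the earliest start in GENCODE vM21, at position 109611967 of chromosome 11. Among the windows with a match, those of Atg7, Rheb and Atg14 also lie downstream of the earliest start in GENCODE vM21. These starts are at position 114643097 of chromosome 6, 24842624 of chromosome 5 and 47570649 of chromosome 14. A match is a description of letters, and no match says only that the letters are not in this window.

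The stretches of Atg3 and Fnip1 are given to show the longer element and a single E-box in genes that were not called. Both are on the plus strand and end at most 20 bases past the earliest annotated start, at chr16:45158579-45158804 for Atg3 and chr11:54437929-54438126 for Fnip1, with capitals marking CACGTG or the full TCACGTGA.
Atg3: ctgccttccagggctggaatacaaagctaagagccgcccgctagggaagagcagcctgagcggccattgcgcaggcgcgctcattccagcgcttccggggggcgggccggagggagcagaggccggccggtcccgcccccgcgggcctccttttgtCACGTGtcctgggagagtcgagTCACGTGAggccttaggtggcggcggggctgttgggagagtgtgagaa
Fnip1: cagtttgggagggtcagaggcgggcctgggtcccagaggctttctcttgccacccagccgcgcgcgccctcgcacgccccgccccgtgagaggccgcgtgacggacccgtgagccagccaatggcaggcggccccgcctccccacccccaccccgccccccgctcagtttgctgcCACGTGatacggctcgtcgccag
Atg3, whose window holds the full element, had 65.7 and 70.1 TPM on ND and 69.7 and 67.7 TPM on HFD.

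A further list of 75 genes of autophagy and mTORC1 control that are not among the 45 was counted the same way. Of these, 73 passed the filter, 10 were called higher and 9 lower, where 13.2% of all genes tested were called higher and 14.1% lower, so these counts were close to the background. Their median log2 fold change was 0.0073, against 0.056 over all genes. The 3 largest increases among their DEGs were Plekhm1, a lysosomal adaptor that binds RAB7 and HOPS (50.2 and 51.3 TPM on ND, 94.5 and 90.8 TPM on HFD, log2 fold change 0.86), Tex264, a receptor for the endoplasmic reticulum (0.79), and Tmem41b, a lipid scramblase (0.72). The 3 largest decreases were Bcl2, which binds BECN1 and restrains it (17.4 and 18.4 TPM on ND, 7.7 and 8.1 TPM on HFD, -1.09), Rubcnl (-0.89) and Sesn3, a sestrin that dampens mTORC1 (-0.82). Their adjusted p-values in limma were between 0.00626 and 0.0235. By step, 3 of 10 further fusion genes and 3 of 13 further receptors were called higher and none lower in limma, while among 32 further genes of mTORC1 control 3 were called higher and 6 lower. Of 13 further initiation genes, 1 was called higher and 2 lower, and of 5 further conjugation genes, 0 were called higher and 1 lower.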

How the data were processed

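RNA-seq was performed by the authors on CD45+ cells of eWAT with a stranded mRNA library kit. The submitters' processing notes name Trim Galore 0.4.2, cutadapt 1.9.1, STAR 2.6.1e, featureCounts 1.6.2 and mm10, and duplicate reads were removed. The authors deposited TPM per gene, printed to 1 decimal, and the gene annotation and the strand setting are not given in the sources used here. TPM holds no depth, so reads were estimated from the smallest step in the values of short microRNA genes (0.0607 to 0.0711 TPM per read and kb) and GENCODE vM21 exon lengths. The libraries then hold approximately 37600000 to 46900000 counted reads.

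Values were compared as log2(TPM + 1) with limma 3.58.1 in R 4.3.3 (lmFit, eBayes with a variance trend) with Benjamini-Hochberg adjustment over 16849 genes. The steps were tested on simulated data in which both diets had the same spread. The HFD samples were less alike than the ND samples, and the simulation does not cover that difference. Replicates differed by 1.52 (ND) and 3.21 (HFD) times the counting error and each was kept. The members and lists were chosen with earlier results of these data known. All members may be named, with values in every sample for DEGs and for pairs and families of related genes, and of the further pathway genes the 3 largest DEGs in each direction. Per-sample values of members outside this rule, and the further genes in the closing observations, were added after their values were seen. The step groups follow the roles of the proteins. In the further list, 4 genes were matched by older symbols. Alternatives were other pseudocounts (0.1 and 5), filters, variance models and scalings, a replicate block and each sample left out. Figures were drawn with matplotlib 3.10.9. The spread behind each step median is the pooled SD of the members' median level within a diet.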

Additional observations from a re-analysis of the deposited data

How the results depend on the processing

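Members called higher in HFD numbered 10, and 6 without a filter, 7 without a variance trend, with median-ratio scaling or with quantile normalization, and from 0 to 12 with 1 sample left out. Members called lower numbered 2, and from 0 to 2 with 1 sample left out. DEGs higher in HFD numbered 3, and from 0 to 3 with 1 sample left out, and quantile normalization gave 1 DEG lower in HFD. Of the further pathway genes, 10 were called higher, 6 without a filter and from 0 to 7 with 1 sample left out, and 9 lower, from 0 to 8 with 1 sample left out. Samples of both diets are numbered 1 and 2 in the labels, but same-numbered samples did not deviate together (correlation -0.015 across genes), so they were not taken as pairs. With a replicate block, 2 members were called higher and 0 lower, with 9 and 2 at an unadjusted p-value under 0.05 in limma, and 1 further gene was called higher and 0 lower. Of all 16849 genes tested, 407 were called higher and 405 lower with the block, 4.82% in either direction. The background fell too in the other settings where fewer members were called higher. In the main fit 2230 of the 16849 genes were called higher, against 1476 of 29097 without a filter. Of the 16849, 1985 were called higher without a variance trend, 1714 with median-ratio scaling and 1627 with quantile normalization. The smaller member counts are thus not particular to the members.

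The median over all genes tested was 0.056, and 0.0025 with quantile normalization, 0.0045 rescaled without the 50 highest genes, 0.028 with median-ratio scaling, 0.040 with a pseudocount of 5, -0.074 without HFD replicate 1 and 0.11 without HFD replicate 2, so the step medians below move beside it. The median of initiation was 0.058, and -0.016 with quantile normalization, 0.0011 rescaled without the 50 highest genes, 0.027 with median-ratio scaling and from -0.083 (without HFD replicate 1) to 0.17 with 1 sample left out. That of conjugation was 0.11, and 0.070 with a filter at a mean of 5 TPM, 0.024 with quantile normalization, 0.051 rescaled without the 50 highest genes and from 0.062 (without HFD replicate 1) to 0.14 with 1 sample left out. That of the cargo receptors was 0.37, and 0.29 with a pseudocount of 5, 0.25 with quantile normalization and 0.24 to 0.43 with 1 sample left out. That of fusion was 0.15, and 0.15 with a pseudocount of 0.1, 0.13 with one of 5, 0.12 with median-ratio scaling, 0.042 with quantile normalization and 0.088 rescaled without the 50 highest genes. That of mTORC1 control was 0.30, and 0.19 with quantile normalization and 0.25 to 0.43 with 1 sample left out. The cause was not tested.

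Only members that were not called changed direction. With median-ratio scaling these were Becn1 (-0.028), Atg3 (-0.014), Map1lc3b (-0.019) and Sqstm1 (-0.011). With quantile normalization they were Ulk2 (-0.018), Becn1 (-0.12), Atg9a (-0.013), Atg3 (-0.10), Atg5 (-0.0094), Atg12 (-0.049), Map1lc3b (-0.15), Sqstm1 (-0.0050) and Vps18 (-0.0065). Rescaled without the 50 highest genes they were Becn1 (-0.056), Atg9a (-0.023), Atg3 (-0.043), Map1lc3b (-0.048) and Sqstm1 (-0.040). With 1 sample left out, the ranges that crossed 0 were -0.076 to 0.033 for Ulk1, -0.093 to 0.26 for Ulk2, -0.21 to 0.40 for Rb1cc1, -0.044 to 0.052 for Becn1, -0.31 to 0.38 for Atg9a, -0.029 to 0.063 for Atg3, -0.035 to 0.022 for Atg4b, -0.011 to 0.37 for Map1lc3a, -0.058 to 0.083 for Map1lc3b and -0.027 to 0.069 for Sqstm1. The filter at a mean of 5 TPM leaves out Atg10, Tsc1, Tsc2 and Rragd. Atg10 had the lowest approximate read numbers of these, 46.5 to 66.7 per sample, which limits its precision.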

Other observations

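The Ragulator complex, which anchors the Rag GTPases to the lysosome, was looked at after its values were seen, because its subunits did not move alike. Lamtor1, its membrane anchor, had 292.9 and 295.6 TPM on ND and 401.7 and 403.0 TPM on HFD and was called higher (log2 fold change 0.45, adjusted p = 0.00868 in limma). Lamtor3 was also called higher (0.26, adjusted p = 0.0359). Lamtor4 had 147.5 and 147.2 TPM on ND and 123.5 and 120.6 TPM on HFD and was called lower (-0.27, adjusted p = 0.0246). Lamtor2 (0.064, adjusted p = 0.309) and Lamtor5 (0.27, adjusted p = 0.119) were not called. Rraga, which pairs with Rragc or Rragd, had 126.0 and 131.7 TPM on ND and 139.5 and 156.5 TPM on HFD (0.20, adjusted p = 0.157), while Rragb was below 1 TPM in all 4 samples.

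Of the 32 further genes of mTORC1 control that passed the filter, 3 were called higher and 6 lower in limma, where 13.2% of all genes were called higher and 14.1% lower. Beside Lamtor1 and Lamtor3, Sec13 was called higher (log2 fold change 0.24). Beside Lamtor4 and Sesn3, those called lower were Itfg2 (-0.54, adjusted p = 0.0422), Eif4ebp2 (-0.42, adjusted p = 0.0172), Castor2 (-0.40, adjusted p = 0.0355) and Kptn (-0.40, adjusted p = 0.0271). Itfg2 and Kptn encode subunits of KICSTOR, which holds the GATOR1 complex at the lysosome. Eif4ebp2 encodes a translational repressor that mTORC1 phosphorylates, and had 57.2 and 57.9 TPM on ND and 43.5 and 41.9 TPM on HFD. Castor1, the gene of the arginine sensor to which Castor2 is related, was not called (0.076, adjusted p = 0.861), nor were Eif4ebp1 (-0.055, adjusted p = 0.383) and the kinase gene Rps6kb1 (-0.064, adjusted p = 0.710).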
